A study of Mus musculus with 12 samples.

Results

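The genes that build the neuromuscular junction were examined in RNA of whole E12.5 mouse embryos. The 10 genes were listed by name and are all present in both tables of counts, among 23420 genes. They are the muscle acetylcholine receptor subunits *Chrna1*, *Chrnb1*, *Chrnd*, *Chrng* and *Chrne*, the agrin receptor and clustering genes *Lrp4*, *Musk*, *Dok7* and *Rapsn*, and *Ache*, which encodes acetylcholinesterase. The *Carm1* line compared 3 embryos homozygous for the *Carm1* knockout allele (Carm1tm1Mtb, Carm1 KO/KO) with 3 wild-type embryos on C57BL/6, and the *Pax3* line compared 3 embryos homozygous for the Splotch allele (Pax3 Sp2H/Sp2H) with 3 wild-type embryos of a closed colony of mixed strain. No embryo received a treatment. Embryos of each line came from intercrosses of heterozygous mice, both alleles are carried by every cell of the embryo, and each embryo gave 1 library. CARM1 is an arginine methyltransferase that acts as a transcriptional coactivator, and PAX3 is a transcription factor of the dorsal neural tube, the neural crest and the muscle precursors of the somite.

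At the junction, motor nerve terminals release acetylcholine, which opens a receptor that in the fetus joins a pair of alpha subunits, from *Chrna1*, to beta, delta and gamma subunits. In mature muscle the epsilon subunit, encoded by *Chrne*, takes the place of gamma. Agrin from the nerve binds LRP4, which activates the kinase MUSK. DOK7 binds and activates MUSK inside the muscle fiber, and rapsyn, the product of *Rapsn*, anchors the receptors in clusters. Acetylcholinesterase ends the signal by cleaving acetylcholine, and it is made by neurons and blood cells as well as muscle.

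The libraries held 17183344 to 23518692 counts. Counts were scaled to library size with TMM factors and are given as CPM, the usual scale of counts relative to sequencing depth, with the SD over 3 embryos. *Carm1* was at 73.3 ± 3.57 CPM in Carm1 KO/KO embryos and 146 ± 7.16 in wild type, a log2 fold change of -0.998 (SE 0.0502, adjusted *P* = 1.23e-15). *Pax3* was at 20.5 ± 2.34 CPM in Pax3 Sp2H/Sp2H embryos and 27.7 ± 3.06 in wild type, a log2 fold change of -0.43 (SE 0.0945, adjusted *P* = 0.00142), and these counts cover the whole gene, so RNA from the mutant alleles is included. *Pax3* was higher in Carm1 KO/KO embryos, at 29.4 ± 1.56 CPM against 22.7 ± 1.88 in wild type (log2 fold change 0.37, SE 0.078, adjusted *P* = 0.00102). Counts on 4 Y-linked genes were high in 1 wild-type library of the *Carm1* line (replicate 3), in 2 wild-type libraries of the *Pax3* line (replicates 2 and 3) and in 1 Pax3 Sp2H/Sp2H library (replicate 3), so the sexes were not balanced between groups. Because whole embryos were used, fewer muscle cells and less RNA per muscle cell cannot be told apart. The E12.5 embryo held RNA of skeletal muscle, heart, neurons and blood. Of 22 skeletal muscle markers, *Ckm* and *Myf6* were too low to test, and none was without a count in any group.

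To compare genes with one another, CPM was divided by the length of the merged exons of each gene. Counts of whole embryos do not show which tissue made the RNA of a gene, so these are not levels in muscle. *Lrp4* had the highest level per kilobase in each of the 4 groups, from 5.56 ± 0.239 CPM per kb in wild-type embryos of the *Pax3* line to 6.23 ± 0.0116 in Carm1 KO/KO embryos. *Chrnb1*, which encodes the beta subunit, was at 6.07 ± 0.316 CPM per kb in wild type of the *Carm1* line, where its range overlapped that of *Lrp4*, and *Ache* came next at 5.14 ± 0.440. *Rapsn* (3.26 ± 0.283) and *Chrng* (3.20 ± 0.340) followed and overlapped each other. *Chrna1* was at 2.10 ± 0.0651, *Musk* at 1.22 ± 0.0482, *Chrnd* at 1.13 ± 0.160 and *Dok7* at 0.768 ± 0.203 CPM per kb, where *Musk* overlapped *Chrnd* and *Chrnd* overlapped *Dok7*. In wild type of the *Pax3* line the order was the same, except that *Chrna1* (1.27 ± 0.147) stood before *Chrng* (1.25 ± 0.132) and overlapped it.

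*Chrne*, the adult subunit, was lowest in every group. Its counts were 4, 5 and 7 in wild-type and 3, 1 and 7 in Carm1 KO/KO embryos of the *Carm1* line, and 0, 2 and 1 in wild-type and 1, 2 and 1 in Pax3 Sp2H/Sp2H embryos of the *Pax3* line. The library with 0 counts allows a level of up to 0.148 CPM. *Chrne* did not pass the filter on low counts and was not tested. Of the summed counts on *Chrne* and *Chrng*, *Chrne* made up 1.99% (exact 95% binomial interval 1.14 to 3.20) in wild-type and 1.74% (0.873 to 3.10) in null embryos of the *Carm1* line. The share was 0.935% (0.193 to 2.71) in wild-type and 1.35% (0.369 to 3.42) in null embryos of the *Pax3* line. The intervals cover counting error only. *Chrng* has the longer exons, and per kilobase the share of *Chrne* was 4.75% and 4.19% in wild-type and null embryos of the *Carm1* line and 2.27% and 3.26% in those of the *Pax3* line.

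**Figure D1:**
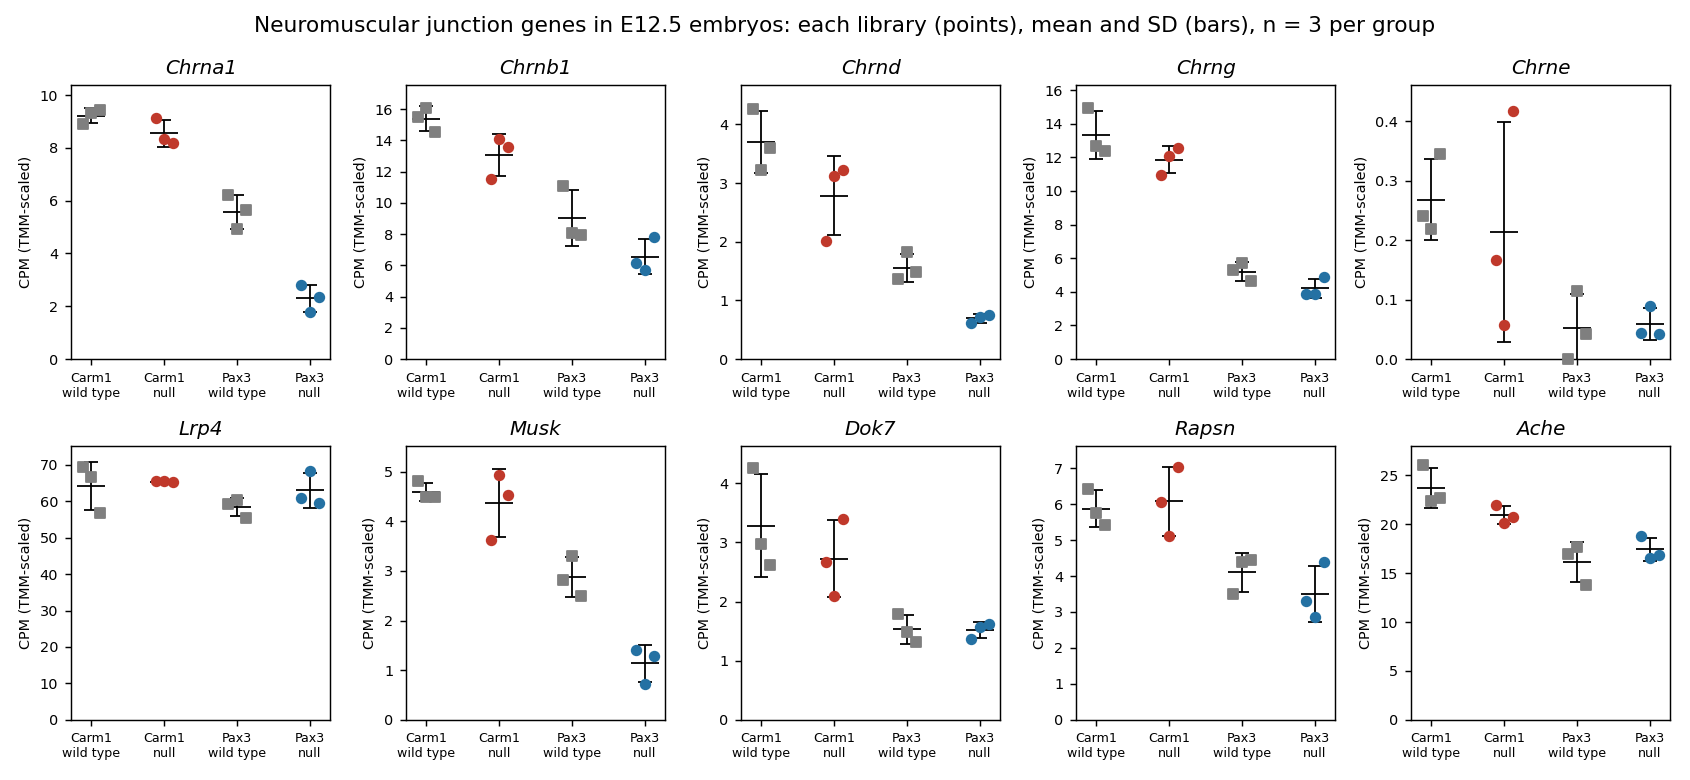
TMM-scaled CPM (vertical axes, each starting at 0) of the 10 genes in each of the 12 libraries, with squares for wild-type and circles for null embryos, and bars for the mean and SD of 3 embryos. The null circles lie below the wild-type squares in the *Pax3* line for *Chrna1*, *Chrnb1*, *Chrnd* and *Musk*, whereas *Lrp4* lies between 55.5 and 68.4 CPM in that line.

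*Chrna1* lies on chromosome 2 (GRCm38, the build that is also called mm10, chr2:73563215-73580338, minus strand), *Musk* on chromosome 4 (chr4:58285960-58374303, plus strand) and *Chrng* on chromosome 1 (chr1:87204657-87212694, plus strand). *Chrnd* lies before *Chrng* on the same strand (chr1:87190607-87200070). These intervals are from GENCODE. The RefSeq start site of *Chrng* used below lies inside its GENCODE interval, and so does the stretch shown for it. RefSeq promoters of GRCm38.p6, which hold 250 bases before the start site and 50 after it, were matched for *Chrna1*, *Chrnb1*, *Chrng*, *Chrne*, *Musk*, *Dok7* and *Ache*, and none was matched for *Chrnd*, *Rapsn* or *Lrp4*. The E-box CANNTG, a palindrome that is the same on both strands, is the sequence that myogenic factors such as MYOD1 and myogenin are known to bind. The stretches of 190 bases that end 10 bases before the start site are shown for *Chrna1* and *Musk*, which changed most in the *Pax3* line, and for *Chrng*, which was not called there. E-boxes are in capitals, and the sequences read 5′ to 3′ on the strand of the gene.
Chrna1, chr2:73580349-73580538, minus strand: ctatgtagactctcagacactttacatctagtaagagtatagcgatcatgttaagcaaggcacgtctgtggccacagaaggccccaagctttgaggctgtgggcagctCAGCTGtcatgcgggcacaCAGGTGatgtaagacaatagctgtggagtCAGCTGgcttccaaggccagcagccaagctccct
Musk, chr4:58285762-58285951, plus strand: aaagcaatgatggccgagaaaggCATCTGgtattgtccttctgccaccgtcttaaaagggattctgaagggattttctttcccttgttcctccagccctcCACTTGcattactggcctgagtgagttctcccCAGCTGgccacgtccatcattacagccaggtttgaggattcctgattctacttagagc
Chrng, chr1:87205611-87205800, plus strand: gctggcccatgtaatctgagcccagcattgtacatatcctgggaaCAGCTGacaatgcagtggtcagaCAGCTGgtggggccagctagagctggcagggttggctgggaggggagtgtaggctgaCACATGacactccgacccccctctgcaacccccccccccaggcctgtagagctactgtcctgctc

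Each of these 3 promoters held 3 E-boxes, at -92, -73 and -44 in *Chrna1*, at -177, -100 and -68 in *Musk*, and at -155, -132 and -75 in *Chrng*, counted from the start site to the first base of the box. *Chrnb1* also held 3, *Chrne* and *Ache* held 1 each, and *Dok7* held 1 in the first of its 2 promoters and 0 in the other. Of all 32851 promoters of 300 bases in the table, 72.3% held at least 1 E-box and 17.6% held at least 3. The form CAGCTG, present in *Chrna1*, *Musk*, *Chrng* and *Chrne*, was in 16.3% of all promoters. A match to these letters is a description and not a site of binding.

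The *Pax3* line was compared first among the receptor subunits. *Chrna1*, *Chrnd* and *Chrnb1* were lower in Pax3 Sp2H/Sp2H embryos, with *Chrna1* and *Chrnd* at 0.416 and 0.454 of the wild-type level and *Chrnb1* at 0.733, while *Chrng* was not called. Of the 4 agrin receptor and clustering genes 1 was called, *Musk*, at 0.404 of wild type. Thus 4 of the 9 genes tested passed the adjusted threshold of 0.05 and all 4 were lower, against 10.5% of the 15724 genes tested that were called lower (24.5% called in either direction). The groups did not overlap for the same 4 genes, and 20.3% of all genes tested were lower in the null embryos without overlap. The median log2 fold change of the 9 genes was -0.29, and that of all genes tested was -0.00255.

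*Chrna1*, the subunit that holds the acetylcholine binding sites, was at 6.20, 4.91 and 5.64 CPM in the 3 wild-type embryos and at 2.81, 1.78 and 2.34 in the 3 Pax3 Sp2H/Sp2H embryos. The highest null embryo was thus well below the lowest wild-type embryo. The log2 fold change was -1.26 (SE 0.183, adjusted *P* = 1.15e-05). *Chrnd*, the delta subunit, was at 1.36, 1.83 and 1.48 CPM in wild type and 0.615, 0.714 and 0.751 in null embryos. All null embryos were lower, and the counts behind these values were small, 28 to 35 in wild type and 14 to 18 in null embryos. The log2 fold change of *Chrnd* was -1.14 (SE 0.306, adjusted *P* = 0.00765), and DESeq2 gave it no adjusted *P* (unadjusted *P* = 0.00398).

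*Chrnb1* was at 11.1, 8.05 and 7.93 CPM in wild type and 6.15, 5.71 and 7.80 in null embryos. Its groups were separated by the narrow gap between 7.80 and 7.93 CPM. Its log2 fold change was -0.45 (SE 0.145, adjusted *P* = 0.0247). The call was lost without wild-type replicate 1 (log2 fold change -0.28, adjusted *P* = 0.214), without null replicate 1 (-0.40, 0.0944) and without null replicate 2 (-0.36, 0.121), and also in DESeq2 with a covariate for the Y-linked libraries (-0.46, 0.0879).

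*Chrng*, the fetal gamma subunit, was at 5.28, 5.71 and 4.62 CPM in wild type and 3.86, 3.88 and 4.88 in null embryos. Null replicate 3 lay above wild-type replicate 3, so the groups overlapped. The log2 fold change was -0.29 with a 95% interval from -0.61 to 0.04 (adjusted *P* = 0.198). The interval does not reach the fold change of *Chrna1*, but the difference between the 2 genes was not tested.

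Because the subunits are assembled in fixed proportions in the receptor protein, their RNA was also set against *Chrna1* within each library, per kilobase. The ratio of *Chrng* to *Chrna1* was 0.863 to 1.23 in the 3 wild-type embryos of the *Pax3* line and 1.45 to 2.29 in the 3 null embryos, with means of 0.995 ± 0.200 and 1.98 ± 0.463. The ratio of *Chrnb1* to *Chrna1* was 2.44 to 3.10 in wild type and 3.79 to 5.79 in null embryos. Both ranges were separate, but *Chrna1*, the divisor, was itself lower in null embryos, and 96.5% of all genes tested were higher without overlap relative to it, so the separation is not particular to these subunits. The ratio of *Chrnd* to *Chrna1* overlapped, at 0.292 to 0.496 in wild type and 0.292 to 0.534 in null embryos. In the *Carm1* line the ratios of all 3 subunits to *Chrna1* overlapped between groups, and that of *Chrng* was 1.53 ± 0.213 in wild type and 1.47 ± 0.182 in null embryos.

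*Musk*, the receptor kinase, was at 2.81, 3.31 and 2.50 CPM in wild type and 1.40, 0.714 and 1.29 in Pax3 Sp2H/Sp2H embryos. Every null embryo was lower, with the lowest value in null replicate 2. The log2 fold change was -1.31 (SE 0.256, adjusted *P* = 0.000461). The partners of MUSK did not pass the threshold. *Lrp4*, the agrin receptor, was at 59.2, 60.3 and 55.5 CPM in wild type and 61.0, 68.4 and 59.5 in null embryos, a log2 fold change of 0.12 (95% interval -0.00993 to 0.25, adjusted *P* = 0.172). *Dok7*, the cytoplasmic activator, was at 1.79, 1.48 and 1.31 CPM in wild type and 1.36, 1.56 and 1.63 in null embryos, and its interval ran from -0.53 to 0.53 on the log2 scale (adjusted *P* = 0.996). *Dok7* was thus measured with low precision, on 26 to 39 counts per library, and changed sign between settings.

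*Rapsn*, the anchor of the receptor, was at 3.49, 4.40 and 4.45 CPM in wild type and 3.29, 2.86 and 4.38 in null embryos, with a log2 fold change of -0.21 (95% interval -0.59 to 0.16, adjusted *P* = 0.427). Over the alternatives it ranged from -0.47 with length and GC offsets to -0.0802 with the Y-linked covariate, and it was not called in any of them. *Ache* was at 17.0, 17.6 and 13.8 CPM in wild type and 18.8, 16.6 and 16.9 in null embryos, with a log2 fold change of 0.13 (95% interval -0.0771 to 0.33, adjusted *P* = 0.385). Both genes overlapped between groups. With length and GC offsets *Ache* turned to -0.0197. An antisense gene of each overlaps its exons, by 4 bases in *Rapsn* and 98 in *Ache*, and the strand setting of the counting was not given in the sources used here.

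**Figure D2:**
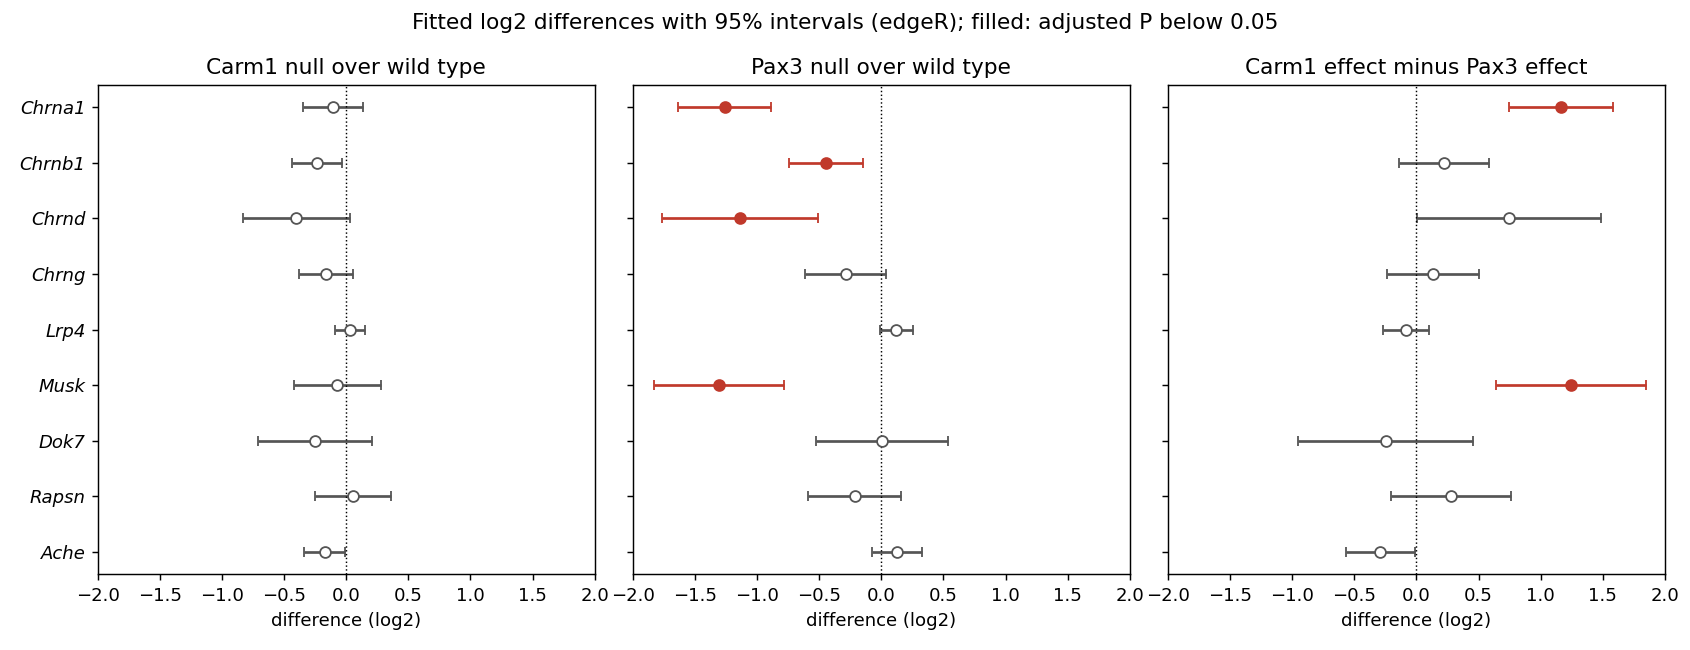
Fitted log2 differences (points) with 95% intervals (lines) for the 9 genes tested, as null over wild type in the *Carm1* line (left) and the *Pax3* line (middle) and as the *Carm1* effect minus the *Pax3* effect (right). Filled red points passed the adjusted threshold of 0.05, with 0 genes on the left, 4 in the middle and 2 (*Chrna1* and *Musk*) on the right.

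In Carm1 KO/KO embryos no member passed the adjusted threshold in edgeR, with 0 of 9 called against 13.3% of 15811 genes tested (5.49% higher and 7.83% lower), and DESeq2 also called 0. At an unadjusted *P* below 0.05 there were 2, *Chrnb1* and *Ache*, against 26.4% of all genes. The null embryos were lower without overlap for 3 genes, *Chrnb1*, *Chrnd* and *Ache*, against 15.6% of all genes tested. The fold change was negative for 7 of the 9, with a median of -0.16 on the log2 scale beside 0.00136 over all genes.

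*Chrna1* was at 8.90, 9.34 and 9.43 CPM in wild type and 9.13, 8.35 and 8.18 in Carm1 KO/KO embryos. The groups overlapped, and the log2 fold change was -0.11 with a 95% interval from -0.35 to 0.13 (adjusted *P* = 0.615). *Chrnb1* was at 15.5, 16.1 and 14.5 CPM in wild type and 11.5, 14.1 and 13.6 in null embryos. These groups were separate, and the log2 fold change was -0.24 (SE 0.0999, adjusted *P* = 0.116). *Chrnd* was at 4.27, 3.23 and 3.60 CPM in wild type and 2.01, 3.12 and 3.23 in null embryos. The highest null embryo and the lowest wild-type embryo were at 3.226 and 3.228 CPM. Its log2 fold change was -0.40 with an interval from -0.83 to 0.0273 (adjusted *P* = 0.225), and it was -0.21 without null replicate 1. *Chrng* was at 15.0, 12.7 and 12.4 CPM in wild type and 10.97, 12.1 and 12.5 in null embryos, and its log2 fold change was -0.16 (-0.38 to 0.0541, adjusted *P* = 0.349). Over the alternatives the fold change of *Chrng* ranged from -0.21 to -0.079, and it was not called in any of them.

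*Musk* was at 4.81, 4.49 and 4.49 CPM in wild type and 3.62, 4.94 and 4.54 in Carm1 KO/KO embryos. The groups overlapped, and the interval of the log2 fold change ran from -0.42 to 0.28 around -0.0735 (adjusted *P* = 0.838). *Lrp4* was at 69.4, 66.7 and 56.8 CPM in wild type and at 65.5, 65.5 and 65.3 in null embryos, all of which lay inside the wild-type range. *Dok7* was at 4.27, 2.97 and 2.62 CPM in wild type and 2.67, 2.10 and 3.41 in null embryos, and its interval was wide, from -0.71 to 0.21. *Rapsn* was at 6.43, 5.76 and 5.43 CPM in wild type and 6.07, 5.11 and 7.05 in null embryos, so the null range enclosed the wild-type range. *Ache* was at 26.1, 22.4 and 22.7 CPM in wild type and 21.9, 20.2 and 20.8 in null embryos, and these groups were separate. The log2 fold change of *Ache* was -0.17 (SE 0.082, adjusted *P* = 0.168). Over the alternatives it ranged from -0.21 to -0.11, and *Ache* was not called in any of them. The signs of *Lrp4*, *Musk* and *Rapsn* depended on the libraries or the model used.

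The effects of the 2 alleles were then compared directly, as an interaction in 1 fit of all 12 libraries in which each line has its own wild-type embryos. *Chrna1* and *Musk* differed between the lines. The *Carm1* effect minus the *Pax3* effect was 1.17 on the log2 scale for *Chrna1* (SE 0.207, adjusted *P* = 0.000135) and 1.24 for *Musk* (SE 0.298, adjusted *P* = 0.00313). These were 2 of 9 genes, both positive, against 19.1% of 16292 genes tested (8.65% positive). For *Chrnd* the difference was 0.74 (95% interval 0.00665 to 1.48, adjusted *P* = 0.152) and for *Ache* -0.29 (-0.57 to -0.0154, adjusted *P* = 0.133), and neither passed after adjustment. The difference for *Chrnb1* was 0.22 (-0.14 to 0.59, adjusted *P* = 0.421) and for *Chrng* 0.13 (-0.24 to 0.50, adjusted *P* = 0.668). The lines differ in strain, colony and allele, which cannot be told apart here. Levels also differed between the 2 wild-type groups, with *Chrng* at 13.3 ± 1.42 CPM in the *Carm1* line and 5.20 ± 0.548 in the *Pax3* line, and *Chrna1* at 9.22 ± 0.286 and 5.58 ± 0.647.

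Skeletal muscle markers were lower in the *Pax3* line beside the 4 junction genes called there. Of 22 markers 20 were tested and 16 were lower in Pax3 Sp2H/Sp2H embryos, with 0 higher and a median log2 fold change of -0.95. Their summed level was 438 to 514 CPM in wild type and 249 to 280 in null embryos. Those with the smallest adjusted *P* were *Myod1* (log2 fold change -1.28) and *Myog* (-1.09), which encode myogenic transcription factors, *Klhl41* (-1.03), which encodes a sarcomere-associated protein, and *Cdh15* (-1.06), which encodes M-cadherin. The 3 receptor subunits and *Musk* thus fell beside a lower level of most muscle markers. The part of the muscle content in these results was not tested. Heart muscle markers went the other way in this line, with 7 of 11 higher, 0 lower and a median of 0.38, led by *Myl7* (0.82), *Nppa* (0.61), *Myl3* (0.51) and *Myl2* (0.44).

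Carm1 KO/KO embryos had fewer calls, as 11 of 20 tested skeletal muscle markers in that line were lower and 0 higher, with a median log2 fold change of -0.27. The summed level was 793 to 908 CPM in wild type and 607 to 618 in Carm1 KO/KO embryos. The smallest adjusted *P* values were those of sarcomere genes, *Acta1* (log2 fold change -0.90), *Myl1* (-0.82), *Mylpf* (-0.64) and *Tnnt3* (-1.09). *Myod1* was at 25.3 CPM in null and 26.4 in wild-type embryos (log2 fold change -0.0638, adjusted *P* = 0.661). *Myog* was lower, at 52.0 CPM in null and 62.4 in wild-type embryos (-0.26, adjusted *P* = 0.000806). Of 11 heart muscle markers 5 were also lower in this line with 0 higher, among them *Tnnt2* (-0.51) and *Myl4* (-0.41). *Myl7* (-0.0313, adjusted *P* = 0.896), *Nppa* (-0.12, adjusted *P* = 0.381) and *Myl2* (-0.13, adjusted *P* = 0.195) were not called. *Nkx2-5* was not called either and had a positive fold change (0.28, adjusted *P* = 0.441). The part of heart and of skeletal muscle in the lower markers was not tested. The 4 receptor subunits tested all had negative fold changes with a median of -0.20, and 0 were called. The heart count fell to 2 without null replicate 3 and to 3 without null replicate 2. It was also 3 in 1 fit of 12 libraries and in DESeq2 with the Y-linked covariate.

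**Figure D3:**
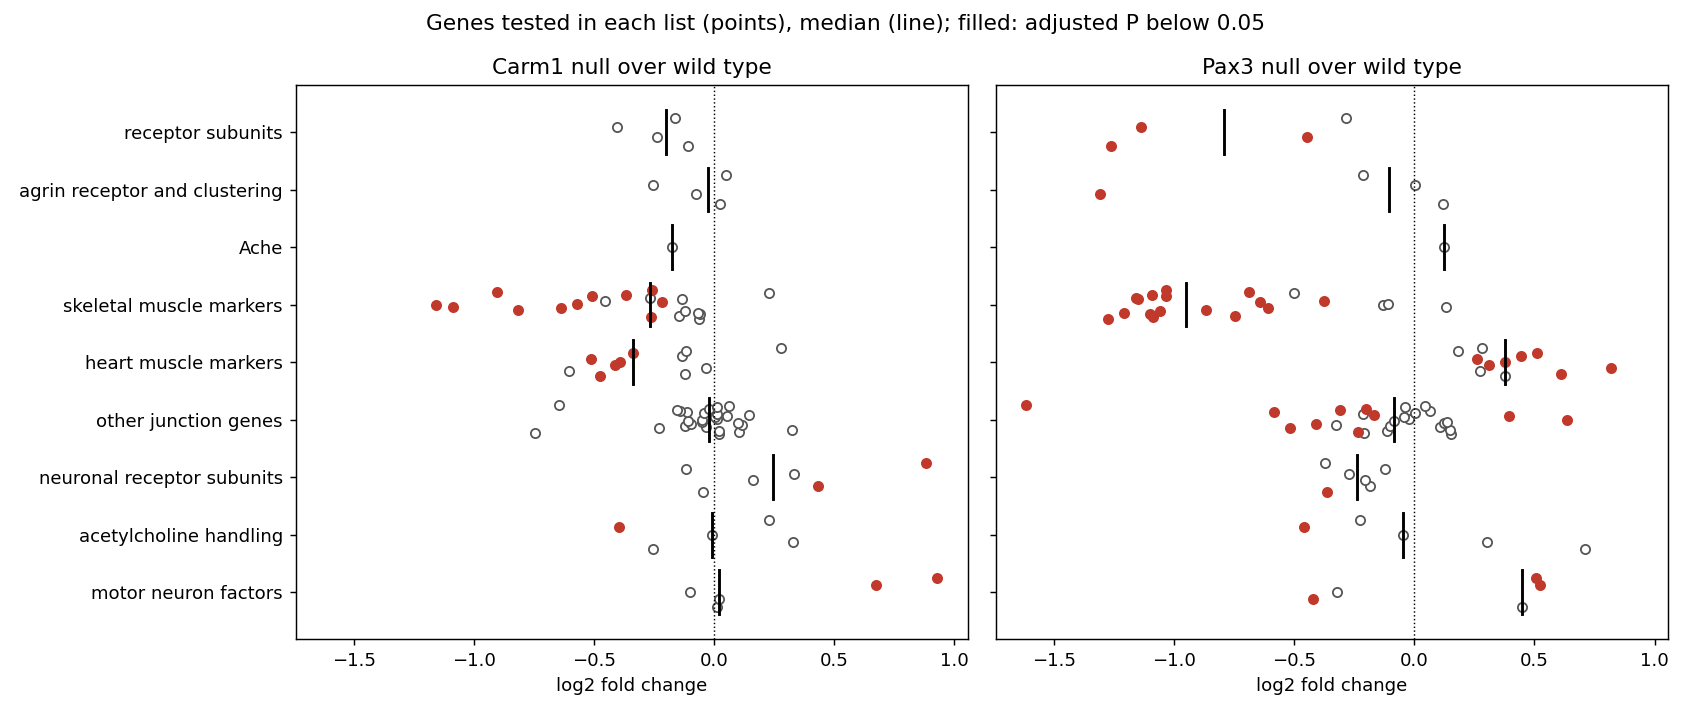
Log2 fold changes (horizontal axis) of the genes tested in each list, as null over wild type in the *Carm1* line (left) and the *Pax3* line (right), with a line at the median of the list and filled points for genes that passed the adjusted threshold of 0.05. Skeletal muscle markers have medians of -0.27 on the left and -0.95 on the right, and heart muscle markers have medians of -0.34 and 0.38.

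Each member was also set against the summed counts of the 22 skeletal muscle markers in the same library. Much of that sum came from *Myh3*, the embryonic myosin heavy chain, with a mean of 265 CPM in wild type and 187 in null embryos of the *Carm1* line and 141 and 68.1 in the *Pax3* line. In the *Pax3* line *Chrna1* was at 10.3 to 12.9 counts per 1000 muscle marker counts in wild type and 6.90 to 11.3 in null embryos. *Musk* was at 5.47 to 6.93 in wild type and 2.76 to 5.63 in null embryos, and *Chrnd* at 2.64 to 3.83 and 2.46 to 2.76. All 3 ranges overlapped on this scale.

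*Chrng* was higher on this scale in Pax3 Sp2H/Sp2H embryos, at 15.0 to 17.4 per 1000 against 10.3 to 11.95 in wild type. *Chrnb1* was at 22.1 to 27.9 against 16.9 to 21.6, *Rapsn* at 11.04 to 15.6 against 6.79 to 10.2, and *Dok7* at 5.46 to 6.04 against 3.004 to 3.49. *Ache* was at 60.3 to 75.3 against 31.6 to 36.9 and *Lrp4* at 213 to 265 against 115 to 127. These 6 of 9 ranges did not overlap, but the muscle sum that divides each value was itself lower in the null embryos, and 93% of all genes tested were higher without overlap on this scale. The share of the members is therefore no result about them, and the 3 genes that overlapped were *Chrna1*, *Musk* and *Chrnd*.

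The same ratio was higher in Carm1 KO/KO embryos for *Chrna1*, at 13.2 to 15.0 against 9.79 to 11.9 in wild type. *Chrng* was at 17.99 to 20.3 against 15.0 to 16.5, and *Musk* at 5.93 to 8.14 against 5.29 to 5.66. *Rapsn*, *Ache* and *Lrp4* were likewise higher without overlap, whereas *Chrnb1*, *Chrnd* and *Dok7* overlapped. These 6 of 9 stand beside 79% of all genes tested, since the muscle sum was lower in Carm1 KO/KO embryos too, with means of 612 CPM against 848 in wild type. In CPM neither *Chrna1* nor *Musk* had a higher mean in null embryos, with 8.56 against 9.22 for *Chrna1* and 4.37 against 4.60 for *Musk*.

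**Figure D4:**
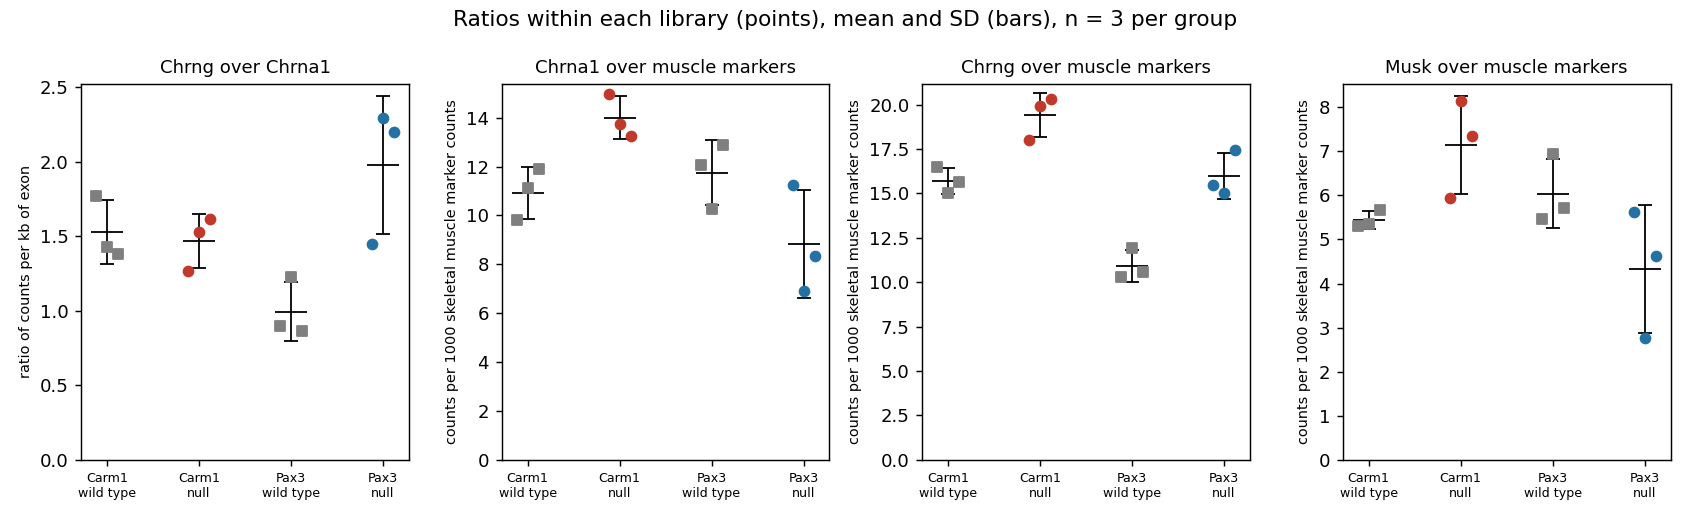
Ratio of *Chrng* to *Chrna1* per kilobase of exon (left) and counts of *Chrna1*, *Chrng* and *Musk* per 1000 counts of the skeletal muscle markers (right 3 panels) in each of the 12 libraries, with squares for wild-type and circles for null embryos and bars for the mean and SD of 3 embryos. The *Chrng* to *Chrna1* ratio is 1.45 to 2.29 in Pax3 Sp2H/Sp2H embryos and 0.863 to 1.23 in wild-type embryos of the line.

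Genes that act with the members at the junction, such as agrin, laminins, neuregulin receptors and the dystrophin complex, were taken as a list of 27, all of which were tested. In the *Pax3* line 2 were higher and 8 lower, with a median log2 fold change of -0.0837. *Erbb3*, a neuregulin receptor that is also made by Schwann cell precursors, was lower (-0.59, adjusted *P* = 7.07e-06), and so was *Lama4*, a laminin chain (-0.41, adjusted *P* = 0.000131). *Dvl1*, a cytoplasmic mediator of Wnt signaling, was higher (0.39, adjusted *P* = 2.61e-05), as was *Col13a1*, a transmembrane collagen (0.63, adjusted *P* = 9.71e-05). *Scn4a*, the sodium channel of skeletal muscle, had a log2 fold change of -1.61 (adjusted *P* = 0.006). Of the Schwann precursor markers, *Sox10* (-0.89, adjusted *P* = 7.82e-08) and *Cdh19* (-1.15, adjusted *P* = 0.000583) were lower in this line. The part of these cells in the change of *Erbb3* was not tested. Carm1 KO/KO embryos had 0 of the 27 junction genes called in edgeR, with a median of -0.0225, although 2 were called higher without wild-type replicate 1 or 2, 2 were called lower without wild-type replicate 3, and 4 were called (3 higher) with length and GC offsets, 2 (1 higher) with no filter, 1 (lower) with a minimum of 10 counts and 2 (lower) with the Y-linked covariate.

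Neuronal receptor subunits, acetylcholine handling and motor neuron factors were described with 3 further lists. In RNA of whole embryos these lists do not single out the motor nerve terminals of the junction. Of 11 neuronal acetylcholine receptor subunits 6 were tested. In the *Carm1* line *Chrna4* (log2 fold change 0.43, adjusted *P* = 2.24e-05) and *Chrnb4* (0.88, adjusted *P* = 0.0235) were higher, and in the *Pax3* line *Chrna3* was lower (-0.37, adjusted *P* = 0.0215). The number of neuronal subunits called was 1 in the *Carm1* line without null replicate 1, without wild-type replicate 1 or 2 and in DESeq2, and 0 in the *Pax3* line without wild-type replicate 1 or 2 or null replicate 1 or 3. Of 5 genes of acetylcholine handling, *Bche*, which encodes butyrylcholinesterase, was lower in both lines, with a log2 fold change of -0.40 in the *Carm1* line (adjusted *P* = 0.00404) and -0.46 in the *Pax3* line (adjusted *P* = 0.00065). The call in the *Carm1* line was lost in DESeq2 with the Y-linked covariate. Without null replicate 3 or with a minimum of 10 counts, 2 handling genes were called in the *Pax3* line, 1 of them higher. Of 5 motor neuron transcription factors, *Lhx3* and *Lhx4* were higher in the *Carm1* line (0.67 and 0.93) and in the *Pax3* line (0.52 and 0.51), and *Isl1* was lower in the *Pax3* line (-0.42, adjusted *P* = 0.000233). *Mnx1* was called neither in the *Carm1* line (0.0143, adjusted *P* = 0.984) nor in the *Pax3* line (0.45, adjusted *P* = 0.125). The motor neuron count was 1 in the *Carm1* line without null replicate 1 or wild-type replicate 2, and 1 in the *Pax3* line without null replicate 1. DESeq2 called 0 motor neuron factors higher in the *Pax3* line, so both calls were lost there, and in the *Carm1* line it called 1, or 0 with the Y-linked covariate. General neuron markers were lower for 4 of 10 in the *Carm1* line and 6 of 10 in the *Pax3* line, with 0 higher in either. Among 8 tested erythroid markers, 5 were lower and 1 higher in the *Carm1* line, and edgeR called 0 in the *Pax3* line (1 without wild-type replicate 2, and 2, 1 higher and 1 lower, with the replicate block). *Ache*, which is made in neurons and red cells too, overlapped between groups in the *Pax3* line and was lower without overlap in the *Carm1* line, and the part of these cells was not tested.

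Genes whose pattern was most like that of *Chrna1* were ranked by Pearson's r over the 12 libraries, on log2 CPM centred on the mean of each line, among 14845 genes. The points share libraries, depth and the difference between groups, so r is given as a description. The 10 highest were *Sh3glb1* and *Smap1* (both 0.981), *Rbm27* (0.970), *Rgs5* (0.969), *Itga4* and *Pdia3* (both 0.965), *Ubb* (0.964), *Cdk14* (0.963), *Pabpc1* (0.962) and *Myod1* (0.959). *Myod1* was the only skeletal muscle marker among them. All 10 were called lower in Pax3 Sp2H/Sp2H embryos and none was called in the *Carm1* line. They were chosen for their likeness to *Chrna1*, which has this same pattern, so the calls follow from the choice and are no separate result. Among the members *Musk* was nearest to *Chrna1*, with r = 0.917 and rank 88, followed by *Chrnd* (0.736), *Chrnb1* (0.718), *Chrng* (0.569) and *Rapsn* (0.402). *Dok7* (-0.00445), *Ache* (-0.21) and *Lrp4* (-0.56) did not rise and fall with it.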

How the data were processed

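Per the labels and the methods of the study, the authors isolated polyadenylated RNA from whole embryos, used STAR for alignment to mm10 and featureCounts for counting over exons. The deposited values are these raw counts, whole numbers per gene with no normalization and no pooling. Versions, annotation, strand setting and the treatment of multiply aligned reads are not given in the sources used here. No 2 libraries were identical.

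Each line was tested alone with the quasi-likelihood functions of edgeR 4.0.16 under R 4.3.3, using robust dispersions, TMM factors and filterByExpr, with Benjamini-Hochberg adjustment over all genes tested and a threshold of 0.05. The difference between lines was an interaction in a fit of 12 libraries. The script was tested on simulated data. CPM uses TMM factors over all libraries. Exon lengths and positions are from GENCODE for GRCm38, and promoters from RefSeq. An exact permutation test of 3 against 3 libraries cannot go below 0.1, so calls rest on the model.

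The members, lists and tests were chosen with earlier results of these data known. Named are all 10 members, at most 4 called genes of each list and comparison by the smallest adjusted *P* value, the 10 genes most like *Chrna1*, and *Carm1* and *Pax3*. *Scn4a*, *Myh3*, *Ckm* and *Myf6* fall outside this rule and were chosen after their values were seen. Alternatives were RLE and upper-quartile factors, DESeq2 (version 1.42.0), no filter, a minimum of 10 counts in every library, 1 fit of 12 libraries, the replicate block, a covariate for the Y-linked libraries (at least 100 counts on 4 Y-linked genes) and leaving out each library. Added after seeing the data were DESeq2 with the Y-linked covariate and offsets for length and GC content. A further Schwann precursor marker is not reported here.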

Additional observations from a re-analysis of the deposited data

Results flagged for a closer look

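The effects of the 2 alleles differed for *Chrna1* and for *Musk* in the test of the difference itself, the interaction in edgeR over all 12 libraries. For *Chrna1* the log2 fold change in the *Carm1* line minus that in the *Pax3* line was 1.17 (SE 0.207, adjusted *P* = 0.000135), and for *Musk* it was 1.24 (SE 0.298, adjusted *P* = 0.00313). These 2 of 9 genes tested stand beside 19.1% of 16292 genes called in this test (8.65% positive). Both remained called when any 1 library was left out. Skeletal muscle markers also differed between the lines in this test, with 9 of 20 called in the same direction and 1 in the other, and a median of 0.67. Their part in the values of *Chrna1* and *Musk* was not tested. Strain and colony differ with the allele and cannot be told apart from it.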

How the results depend on the processing

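Of the *Carm1* comparison 0 members were called under every alternative run, and in the interaction 2 under every one, with ranges of 0 to 0 and 2 to 2 over the fits that leave out 1 library. In the *Pax3* line 4 were called, with a range of 3 to 4 when 1 library was left out, where *Chrnb1* lost its call. DESeq2 called 3, and with the Y-linked covariate 2 (*Chrna1* and *Musk*). DESeq2 gave *Chrnd* no adjusted *P* in either fit (log2 fold changes -1.15 and -1.08, unadjusted *P* = 0.00398 and 0.0197). Adjusted *P* of *Chrnb1* ranged from 0.00931 to 0.214. Small fold changes turned sign, and the cause was not tested. In the *Carm1* line *Lrp4* was -0.0549 with the Y-linked covariate, -0.0548 without wild-type replicate 3 and -0.0539 in DESeq2 with that covariate, *Musk* was 0.048 without null replicate 1, and *Rapsn* was -0.066 without null replicate 3 and -0.000485 in DESeq2 with that covariate. In the *Pax3* line *Dok7* was -0.0021 with RLE factors, -0.00307 in DESeq2, -0.00752 in 1 fit of 12 libraries, -0.0252 with the Y-linked covariate, -0.00675 and -0.10 without wild-type replicates 2 and 3, -0.0192 and -0.0539 without null replicates 2 and 3, and -0.15 with length and GC offsets, where *Ache* was -0.0197. Leaving out 1 library at a time gave -0.0548 to 0.0809 for *Lrp4*, -0.17 to 0.048 for *Musk* and -0.066 to 0.16 for *Rapsn* in the *Carm1* line, and -0.10 to 0.13 for *Dok7* in the *Pax3* line. Replicate numbers were not treated as pairs. Same-numbered deviations correlated at -0.0508, -0.0182 and -0.0322 in the *Carm1* line and 0.186, -0.15 and 0.282 in the *Pax3* line. Differently numbered ones ran from -0.000864 to 0.0366 in the *Carm1* line and from -0.421 to 0.306 in the *Pax3* line. With 3 libraries per group these values cannot show whether embryos shared a litter. With the replicate block, members called were 0, 4 and 2 and all genes called 1787, 4177 and 3094, against 2106, 3851 and 3115 without it. All genes called in the *Carm1* line were 1224 and 1381 without null replicates 1 and 2, 1349 without wild-type replicate 2 and 863 in DESeq2 with the Y-linked covariate. In the *Pax3* line they were 2565 and 2454 without null replicates 1 and 3. With length and GC offsets 59% of the 3159 calls in the *Carm1* line were higher, against 41.2%. No setting moved the median of all genes by 0.1 on the log2 scale. *Chrnd*, *Dok7* and *Musk* had under 110 counts per library, which limits their precision.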
